A study of Mus musculus with 2 samples.

Results

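The clustered replication-dependent histone genes of the mouse were followed in heart. They were taken as every gene whose symbol begins with Hist1h, Hist2h, Hist3h or Hist4h and that has a protein-coding transcript. This rule gave 67 genes among the 55450 annotated genes that were present in every table and among the 21901 genes with a protein-coding transcript. They comprised 6 genes for the linker histone H1, 18 for H2A, 18 for H2B, 12 for H3 and 13 for H4. The rule itself uses symbols and transcript types and no measured value. Total RNA with ribosomal RNA reduced had been sequenced from hearts of male B6CASTF1/J mice, F1 hybrids of the B6 strain and the wild-derived CAST strain, at an age of 10 days. No treatment or added allele was named. The series had 1 group of 2 libraries, replicate 1 and replicate 2, and therefore no contrast of conditions. The labels number the males separately but give them the same donor record, so whether the spread between the libraries is one between animals cannot be told. Markers of several cell types differed between the libraries, as given below.

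Replication-dependent histone genes supply the proteins that package newly made DNA. An octamer of H2A, H2B, H3 and H4 wraps the DNA of a nucleosome, and H1 binds the linker DNA between nucleosomes. Their mRNAs are made mostly in S phase, usually lack introns, and end in a conserved stem-loop in place of a poly(A) tail, so that methods that start from poly(A) tails largely miss them while total RNA methods retain them. In the mouse heart, cardiomyocytes still enter S phase in the first days after birth, and non-muscle cells divide for longer.

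The libraries held 38624945 and 37691678 expected counts in annotated genes in replicates 1 and 2. Each library had been quantified by the authors in different ways, from alignments to the transcriptome (called the first quantification here) and directly from reads (called the other). Levels are given as TPM, a unit of transcript abundance in which reads are divided by the usable length of the transcript and scaled to a constant total. The tissue label was checked against 8 cardiomyocyte markers, whose summed level was 34525 TPM in replicate 1 and 31871 TPM in replicate 2. In bulk tissue, fewer cells of a type and less RNA per cell cannot be told apart.

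Most of the clustered histone genes were measurable in the 10-day heart. At 1 TPM or more in both libraries, 62 of the 67 genes were detected, whereas the same threshold passed 22.9% of all genes and 52.6% of protein-coding genes. The other quantification detected 58 of 67, beside 54.7% of protein-coding genes. In the first quantification 11 members had a mean of 100 TPM or more, 42 lay from 10 to under 100 TPM and 10 from 1 to under 10 TPM. Together the 67 genes had 4354 TPM in replicate 1 and 3110 TPM in replicate 2, which was 0.435% and 0.311% of all TPM. The plot of levels by gene shows that each family contained a few high members and a long tail.

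**Figure D1:**
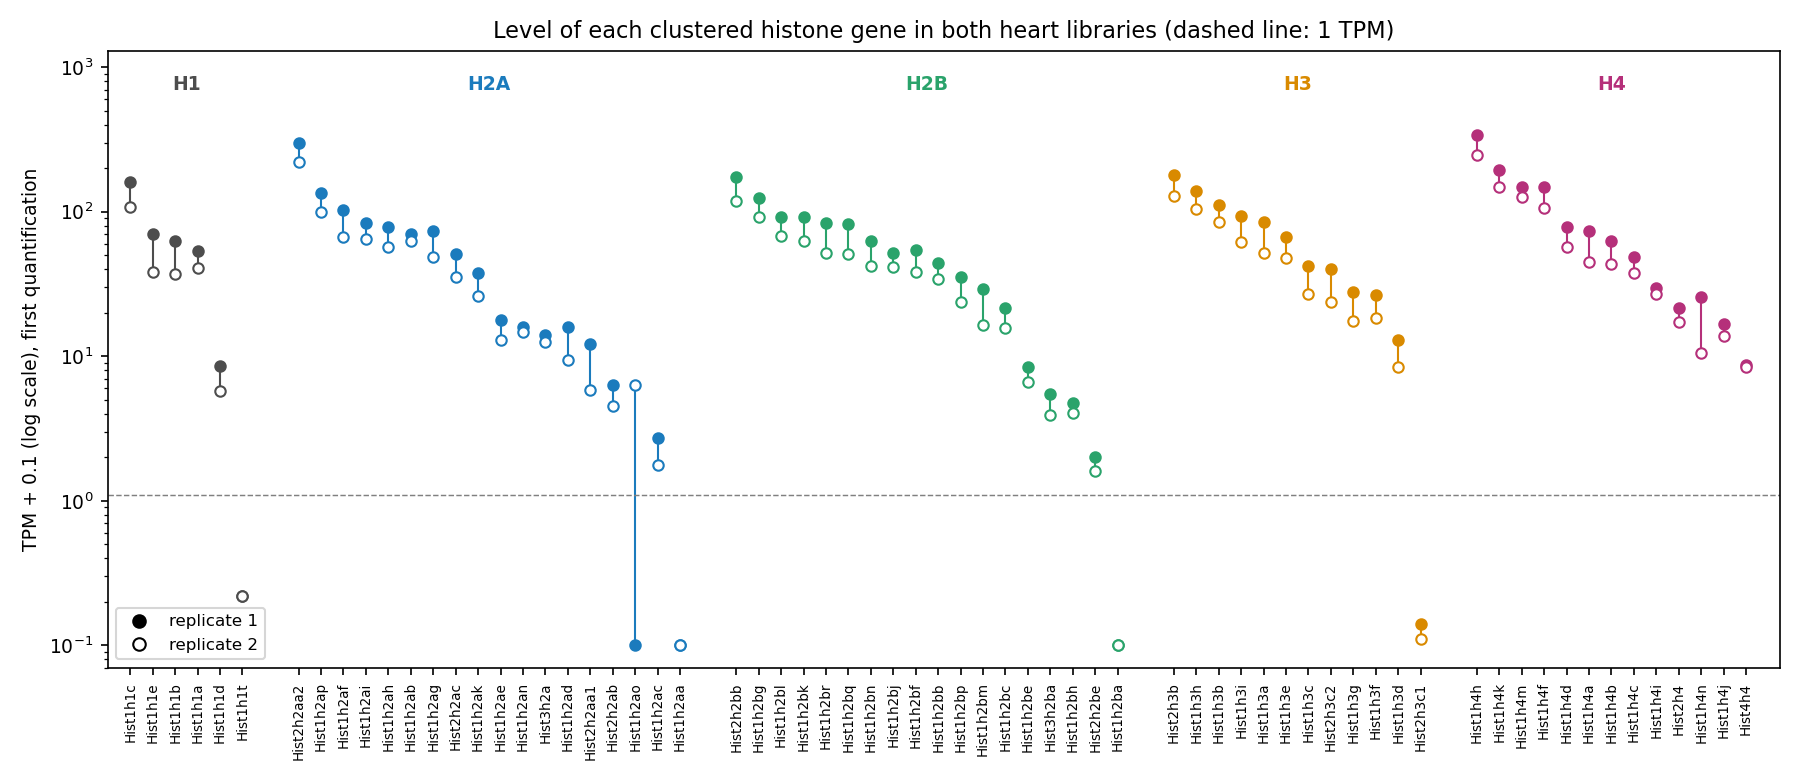
Level of each of the 67 genes in TPM with 0.1 added (log axis), grouped by histone family and ordered by mean; filled points are replicate 1 and open points replicate 2. In the first quantification, shown here, replicate 2 was the lower library for 63 genes and the higher for 1, Hist1h2ao. In the other quantification Hist1h2ao was higher in replicate 1. In TPM the genes of the whole series were lower in replicate 2 as well. The median log2 ratio of replicate 2 over replicate 1 was -0.21 over all 13208 genes tested. It was -0.49 over the 62 tested members, so part of the count of 63 goes with the general shift. In at least 1 library, 5 genes fell under 1 TPM.

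The 5 genes under 1 TPM fell into different kinds. Hist1h2aa and Hist1h2ba, head-to-head genes for testis forms of H2A and H2B, had 0 counts in both libraries, against a floor of 3 counts that equals 0.0777 and 0.0796 CPM, counts scaled to library size. Hist1h1t, the testis-specific H1, had 3 counts and 0.12 TPM in each library. These 3 germ-line genes were thus at or under the floor. Hist1h2ao was at 0 TPM in replicate 1 and 6.25 TPM in replicate 2, and its coding sequence is identical to that of Hist1h2ap. In the other quantification its direction was the opposite. There its log2 ratio over Hist1h2bq, which was at or near 0, was 5.08 in replicate 1 and -0.02 in replicate 2. Hist2h3c1 was at 0.04 and 0.01 TPM, and its coding sequence is identical to that of Hist2h3c2.

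Summed by family, H4 was highest and H1 lowest in both libraries. H4 summed to 1196 TPM in replicate 1 and 889 TPM in replicate 2, a mean of 1043 ± 217 TPM (SD, n = 2). H2A followed with 1014 and 748 TPM, H2B with 967 and 671 TPM, H3 with 822 and 571 TPM, and H1 with 355 and 230 TPM. Neighbouring core families overlapped in their levels over the libraries, whereas every library of H4 lay above every library of H3, and H1 lay below all core families. As shares of clustered histone TPM, the libraries differed little, with H4 at 27.5% and 28.6%, H2A at 23.3% and 24.1%, H2B at 22.2% and 21.6%, H3 at 18.9% and 18.4%, and H1 at 8.14% and 7.41%.

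The order of the core families depended on the quantification. In the other quantification H2A came first with 31.03% and 32.1% of clustered histone TPM, followed by H3 with 22.3% and 21.4%, H4 with 19.8% and 20.9%, and H2B with 18.8% and 18.2%. H1 stayed last at 8.11% and 7.43%. H2A thus moved from the second place to the first and H4 from the first to the third, with shares that changed by more than the spread between libraries, which was 0.79 percentage points for H4 and 0.55 for H2A (SD, n = 2). Without scaling for length, H1 took 21.5% of the family counts, since its transcripts are the longest of the 5 families by median.

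**Figure D2:**
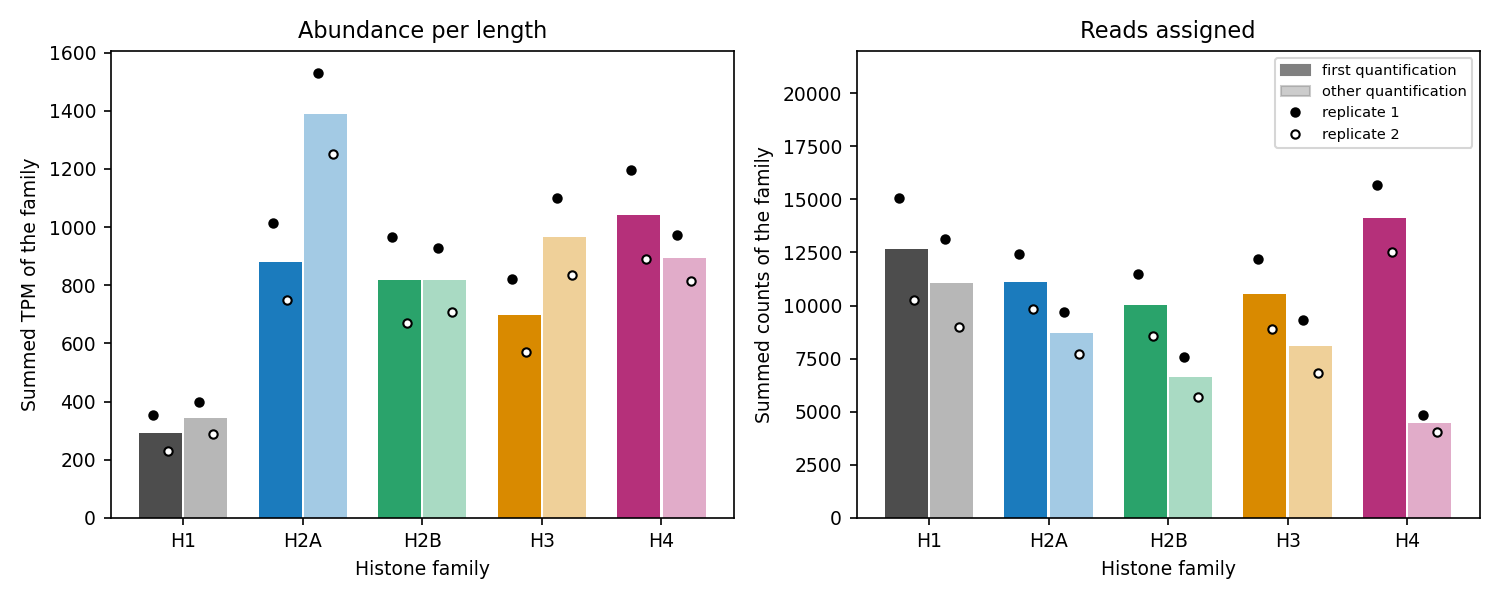
Left, summed TPM of each family; right, summed counts; dark bars are the mean of the first quantification, pale bars the mean of the other, and points are the libraries. In counts, the H4 bar of the other quantification falls to 31.02% and 32.4% of the first, whereas the H1 bar keeps 87.2% and 87.9%.

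The genes lie in 4 clusters in the mm10 build. The Hist1 cluster on chromosome 13 held 54 members in 2 stretches, 23 at chr13:21715763-22043676 and 31 at chr13:23531050-23934851. Hist2 on chromosome 3 held 10 members at chr3:96219865-96270132, Hist3 on chromosome 11 held 2 at chr11:58948920-58956830, and Hist4 on chromosome 6 held 1. Hist1 supplied 81.3% and 81.4% of clustered histone TPM in replicates 1 and 2, Hist2 supplied 18.0% and 17.9%, Hist3 0.443% and 0.523%, and Hist4 0.197% and 0.27%. Both stretches of Hist1 were active, with 38.1% and 38.7% from the one nearer the chromosome start and 43.2% and 42.7% from the farther one. In the other quantification the nearer stretch gave 23.9% and 24.9% and the farther 56.0% and 55.1%, so the near balance between them did not hold there. The map of the Hist1 cluster shows high and low members interleaved, with members of every family in each stretch.

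**Figure D3:**
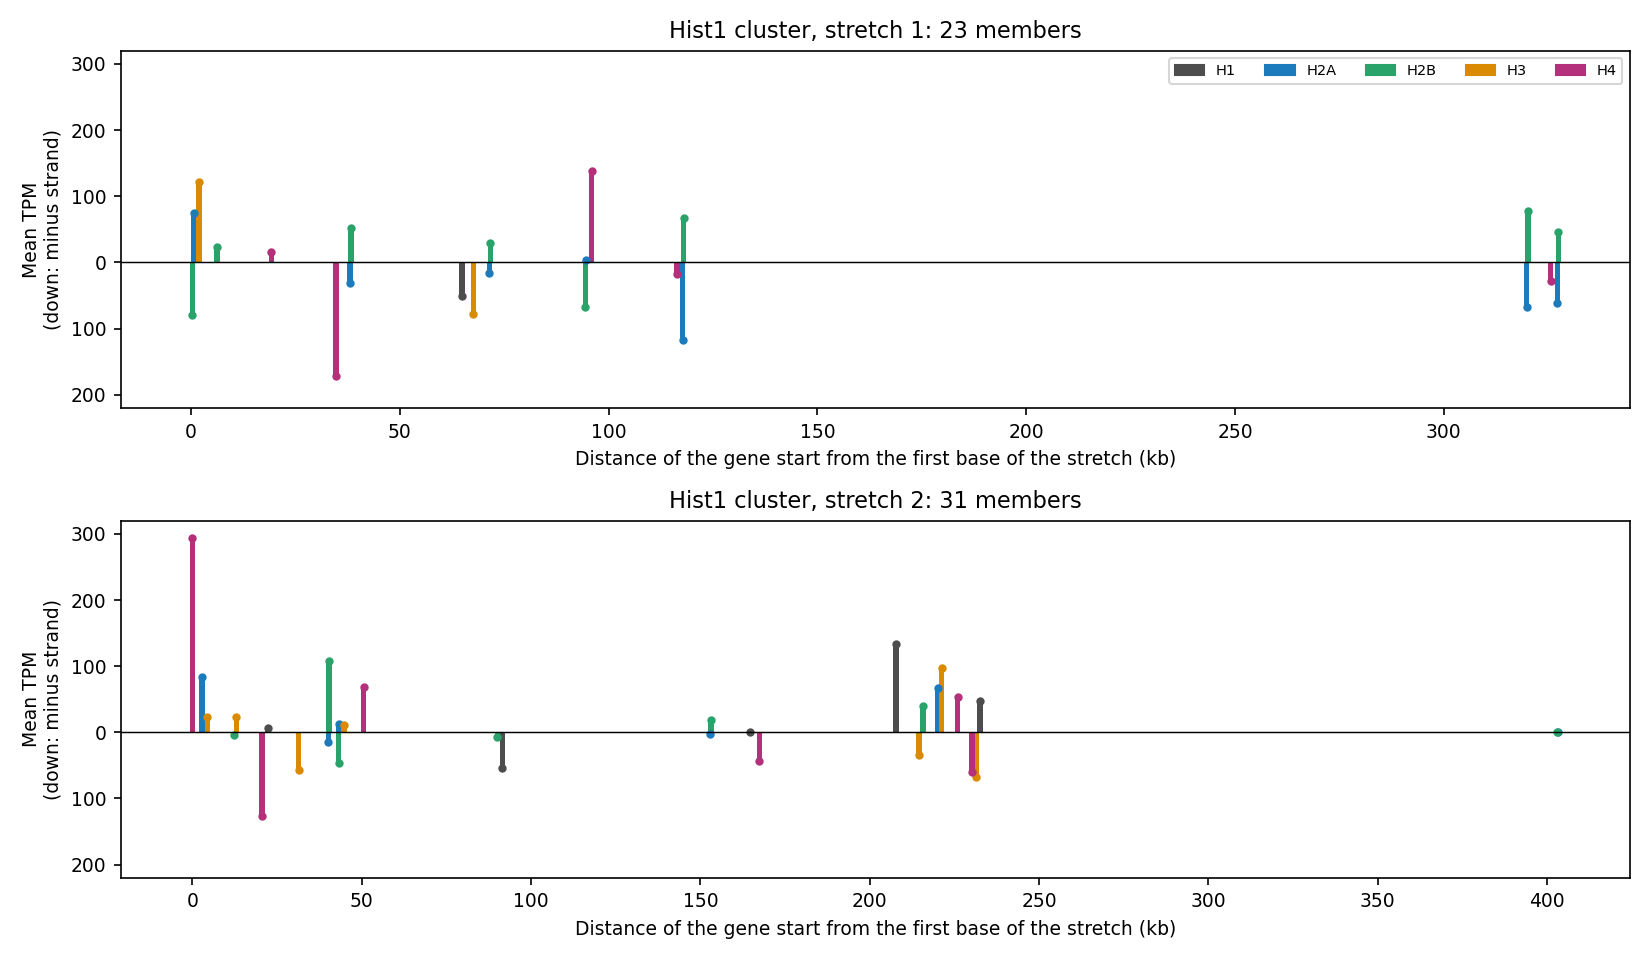
Mean TPM of the Hist1 members by distance of the gene start from the first base of each stretch in kb; bars up are plus-strand genes, bars down minus-strand genes, and colours are families. Hist1h4h, at the start of the stretch of 31 members, is the tallest bar at 293 TPM, and the last pair of that stretch, Hist1h2aa and Hist1h2ba, is at 0.

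Of the H1 genes, which encode the linker histone, Hist1h1c was highest with 160 TPM in replicate 1 and 108 TPM in replicate 2. Hist1h1e followed with 70.1 and 38.2 TPM, Hist1h1b with 62.8 and 37.3 TPM, and Hist1h1a with 53.2 and 40.7 TPM. Hist1h1d had 8.41 and 5.64 TPM from 1863 and 1324 counts, because its annotated transcript is 7425 bases long. Hist1h1c held 45.1% and 47.0% of the family in the libraries. The 6 genes encode 6 different proteins and shared a median of 3.73% of their 31-base words with transcripts of other genes, the lowest sharing of the families.

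Among H2A genes, Hist2h2aa2 at chr3:96239749-96240276 had 299 and 222 TPM and held 29.5% and 29.6% of the family. Hist1h2ap had 135 and 99.0 TPM and Hist1h2af 102 and 66.3 TPM. Hist2h2ac had 50.5 and 35.1 TPM, Hist2h2aa1 12.1 and 5.74 TPM, and Hist2h2ab 6.24 and 4.44 TPM. Hist3h2a, alone with Hist3h2ba in its cluster, had 13.9 and 12.5 TPM. The 18 genes encode 9 proteins, of which the commonest is shared by 9 genes. Those 9 genes made up 40.9% and 42.7% of H2A TPM. The other 9 detected Hist1 H2A genes ran from Hist1h2ai with 83.8 and 64.6 TPM down to Hist1h2ac with 2.60 and 1.68 TPM.

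H2B, the partner of H2A in the nucleosome, was led by Hist2h2bb with 175 and 118 TPM. Hist1h2bg had 125 and 91.3 TPM and Hist1h2bl 92.1 and 68.3 TPM. Outside Hist1, Hist2h2be had 1.92 and 1.52 TPM and Hist3h2ba 5.41 and 3.80 TPM. The H2B proteins numbered 11 for 18 genes, and the protein shared by most, 6 genes, accounted for 43.9% and 43.7% of H2B TPM. A further 12 detected Hist1 H2B genes ran from Hist1h2bk with 92.3 and 62.3 TPM down to Hist1h2bh with 4.67 and 3.96 TPM.

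The H3 genes were led by Hist2h3b with 178 and 128 TPM, Hist1h3h with 139 and 104 TPM, and Hist1h3b with 111 and 84.6 TPM. Hist2h3c2 had 40.2 and 23.5 TPM, and 7 further Hist1 genes ran from Hist1h3i with 93.3 and 61.5 TPM down to Hist1h3d with 12.8 and 8.33 TPM. Only 2 distinct proteins are encoded by the 12 genes. The 8 genes of the commoner form, which includes the 3 Hist2 H3 genes and is known as H3.2, summed to 478 and 337 TPM or 58.2% and 59.0% of H3. The remaining 4, Hist1h3a, Hist1h3g, Hist1h3h and Hist1h3i, encode the form known as H3.1 and summed to 344 and 234 TPM or 41.8% and 41.0%. The other quantification gave the commoner form 67.6% and 68.2%.

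All 13 H4 genes were detected in the first quantification and 12 in the other, and all 13 encode the same protein. Hist1h4h at chr13:23531050-23531519 was the highest of the 67 genes, with 339 and 248 TPM. Hist1h4k had 195 and 149 TPM and Hist1h4m 149 and 127 TPM. Hist2h4 had 21.7 and 17.3 TPM and Hist4h4 on chromosome 6 had 8.58 and 8.39 TPM. The other 8 Hist1 genes ran from Hist1h4f with 148 and 106 TPM down to Hist1h4j with 16.6 and 13.8 TPM. Although the protein is the same, 12 different coding sequences encode it, with 85.4% to 100% identity between pairs. The first 60 coding bases of the 3 highest genes, of Hist1h4d and Hist1h4f, and of the most distant, Hist4h4, are given because such differences are what allow a read to be placed. They were read from the GENCODE M21 transcripts, and capitals mark bases that differ from Hist1h4h.
Hist1h4h: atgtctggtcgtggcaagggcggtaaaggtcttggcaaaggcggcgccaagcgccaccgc
Hist1h4k: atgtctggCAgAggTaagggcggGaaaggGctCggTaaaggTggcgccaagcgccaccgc
Hist1h4m: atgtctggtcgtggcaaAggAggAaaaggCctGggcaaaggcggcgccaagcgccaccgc
Hist1h4f: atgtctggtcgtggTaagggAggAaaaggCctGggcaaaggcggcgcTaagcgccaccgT
Hist1h4d: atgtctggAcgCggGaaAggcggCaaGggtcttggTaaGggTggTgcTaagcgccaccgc
Hist4h4: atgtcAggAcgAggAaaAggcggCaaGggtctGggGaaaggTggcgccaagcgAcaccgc
Within these 60 bases Hist1h4m differed from Hist1h4h at 5 positions and Hist4h4 at 11, with whole coding identities of 96.8% and 86.1%.

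The stem-loop at the 3′ end is the element by which these mRNAs are recognised. The letters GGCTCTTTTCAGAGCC, or the same with A or T as the last loop base, were found in the transcripts of 33 of 67 members and in 35 of all 21901 protein-coding genes, or 0.16%. No H4 gene carried these letters. When the search asked only for 6 paired stem bases starting with GG around a loop of 4, 46 members had a match, among them 12 of 13 H4 genes, against 9.88% of protein-coding genes. The 46 matches took 8 forms. The first form, with C, was the commonest, in 26 members of the H1, H2A, H2B and H3 families and in no H4 gene, and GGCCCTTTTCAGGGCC was found in 7 members, all of them H4. In both forms the stem is paired, as the search required. The lines below show the element in the transcript of the highest member with a match in each family, plus 1 gene for each remaining form. Capitals mark stem and loop.
Hist1h1c: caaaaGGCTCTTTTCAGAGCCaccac
Hist2h2aa2: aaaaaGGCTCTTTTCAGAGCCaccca
Hist1h2bg: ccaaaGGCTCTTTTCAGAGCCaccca
Hist1h3b: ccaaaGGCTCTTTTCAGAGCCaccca
Hist1h4h: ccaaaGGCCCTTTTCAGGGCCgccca
Hist1h3c: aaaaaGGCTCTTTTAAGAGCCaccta
Hist1h3g: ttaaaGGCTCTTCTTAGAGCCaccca
Hist1h4a: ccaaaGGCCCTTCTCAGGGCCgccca
Hist1h4b: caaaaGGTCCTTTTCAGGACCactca
Hist1h4i: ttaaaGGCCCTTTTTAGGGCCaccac
Hist2h2ac: aaaaaGGCTCTTTTTAGAGCCaccaa

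The stem-loop began 21 to 58 bases after the stop codon, with a median of 31. Of the 21 members without a match, 19 have under 50 bases of annotated 3′ untranslated sequence, among them Hist2h2bb, Hist2h3b and Hist1h4k. No match in such a model says only that the letters are not in the annotated window. The exceptions were Hist1h2bc and Hist2h2be, both H2B genes with longer annotated ends. The polyadenylation signal AATAAA lay in the last 50 bases of 15 members and of 69.6% of protein-coding genes. In 18 members the annotated transcript ran more than 200 bases past the stem-loop, and 65 of 67 members had a single exon.

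Many H2A and H2B genes stand head to head, with their starts close together and transcription running outward. Among members, 12 pairs of an H2A and an H2B gene had starts 176 to 306 bases apart, so 24 of the 36 H2A and H2B genes were in such a pair. In 10 of them both members reached 1 TPM in both libraries. The levels of the paired genes were within 2-fold of each other in both libraries in 5 of those 10, the H2B member was over 2-fold higher in 3 and the H2A member in 1. In the remaining pair, Hist1h2an and Hist1h2bp, the log2 ratio of H2A over H2B was -1.16 in replicate 1 and -0.69 in replicate 2. In the other quantification 4 of the same 10 pairs were within 2-fold, only 2 of them also in the first, while the H2B member was over 2-fold higher in 3 and the H2A member in 3.

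Hist1h2ai and Hist1h2bl were almost level, at 83.8 and 92.1 TPM in replicate 1 and 64.6 and 68.3 TPM in replicate 2. Of the 10 pairs with both members at 1 TPM or more, Hist2h2ac and Hist2h2be were the most unequal, at 50.5 against 1.92 TPM and 35.1 against 1.52 TPM. This inequality was also seen in the other quantification, with log2 ratios of H2A over H2B of 4.74 and 4.53. The annotated transcripts are 520 bases long for Hist2h2ac and 2620 for Hist2h2be. Both quantifications divide reads by a length taken from these models, so part of the inequality in TPM goes with annotated length. For Hist1h2ai and Hist1h2bl, in contrast, the other quantification gave log2 ratios of 2.18 and 2.74. For Hist1h2ae and Hist1h2bg the sign of the log2 ratio changed, from -2.81 and -2.82 to 0.48 and 0.51.

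A RefSeq promoter sequence, 250 bases before to 50 after the start in GRCm38.p6, the assembly called mm10, was matched for 62 of 67 members. CCAAT, on either strand, was found in 53 of the 62 and in 37.4% of 32851 promoters of the same length. All 50 matched H1, H2A, H2B and H3 promoters held it, whereas 3 of 12 H4 promoters did. TATAAA was found in 35 of 62 and in 13.6% of all promoters, including 8 of 12 H4 promoters. The octamer ATTTGCAT, a sequence bound by the Pou2f1 family, was found in 7 H2A and 6 H2B promoters, in none of the other 28, and in 1.74% of all promoters. Paired genes share part of this window, so their matches are not independent.

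Promoters are given for Hist1h2bg, whose window also takes in the start of Hist1h2ae, and for Hist1h4k, to show an H2A/H2B promoter with all 3 motifs beside an H4 promoter with TATAAA alone. Capitals mark the motifs on either strand. The first is chr13:23571150-23571449 on the plus strand and the other chr13:21750504-21750803 on the minus strand.
Hist1h2bg: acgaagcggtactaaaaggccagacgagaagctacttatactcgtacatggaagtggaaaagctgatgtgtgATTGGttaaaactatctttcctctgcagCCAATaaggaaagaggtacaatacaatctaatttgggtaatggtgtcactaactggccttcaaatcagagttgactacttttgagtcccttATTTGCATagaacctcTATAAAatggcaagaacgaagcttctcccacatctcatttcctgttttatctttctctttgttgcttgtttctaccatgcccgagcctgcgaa
Hist1h4k: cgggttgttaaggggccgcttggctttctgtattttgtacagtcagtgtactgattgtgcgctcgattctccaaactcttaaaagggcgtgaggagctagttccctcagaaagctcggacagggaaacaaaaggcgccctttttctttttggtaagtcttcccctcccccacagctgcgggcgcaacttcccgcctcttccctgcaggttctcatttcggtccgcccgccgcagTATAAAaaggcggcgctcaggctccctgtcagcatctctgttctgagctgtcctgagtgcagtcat
In the printed Hist1h2bg window the octamer and TATAAA stand close together and nearer the Hist1h2bg start than the CCAAT letters do.

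The quantifications read the same libraries but placed histone reads differently. Over all 67 genes, the other quantification assigned 66.7% and 66.5% as many counts as the first in replicates 1 and 2, and this share ranged by family from 87.2% and 87.9% for H1 to 31.02% and 32.4% for H4. H2A kept 77.8% and 78.4%, H3 76.6% and 76.9%, and H2B 66.0% and 66.2%. In share of the library's counts, 30 of the 62 members whose counts averaged 50 or more were over 2-fold lower in the other quantification in both libraries, against 2.75% of all genes tested, and 4 were over 2-fold higher, against 0.613%. In TPM, 14 members were over 2-fold lower against 2.18% of genes, and 9 were over 2-fold higher against 2.54%. The median log2 ratio of TPM, other over first, was 0.38 over all genes tested and 0.002 over members. The 2-fold cuts in TPM were therefore not centred on the general shift. The quantifications also used different effective lengths, by which counts are divided to give TPM. For member transcripts of up to 500 bases the effective length of the first was 2.41 to 3.17 times that of the other in replicate 1.

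H4 kept the smallest part of its counts. In count share 11 of 13 H4 genes were over 2-fold lower, with a median log2 ratio of -2.22 beside -0.96 over all members and 0.10 over all 13208 genes tested. Hist1h4d had 2479 and 1900 counts in the first quantification and 74.0 and 67.0 in the other. Hist1h4f had 1304 and 991 against 26.2 and 16.1, and Hist1h4k had 1255 and 1017 against 16.1 and 43.2. In contrast Hist1h4h had 3802 and 2947 against 2930 and 2263 counts. The other quantification thus placed 70.0% and 66.7% of H4 TPM in Hist1h4h, where the first placed 28.3% and 27.9%. Hist1h4b had 568 and 412 against 29.3 and 27.2 counts, and Hist1h4n had 256 and 110 against 7.47 and 0.

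**Figure D4:**
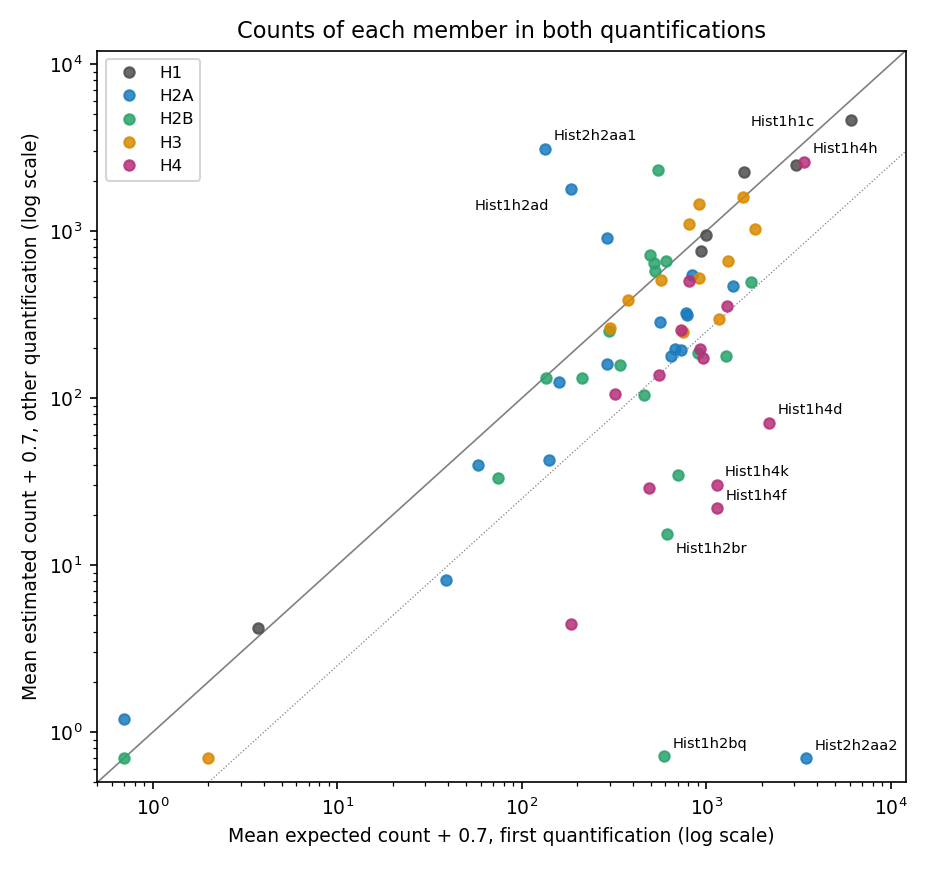
Mean count of each gene over both libraries in the first (horizontal) and the other (vertical) quantification, with 0.7 added, on log axes; the solid line marks equality and the dotted line a 4-fold lower count. All 13 H4 genes lie below the solid line, Hist1h4h nearest to it and Hist1h4d farther off at 2479 against 74.0 counts in replicate 1, while Hist2h2aa1 and Hist1h2ad lie above it.

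In H2A, the quantifications differed in which of several genes of similar sequence held the counts. Hist2h2aa2 had 3878 and 3045 counts in the first quantification and was listed at 0 in the other, whereas its twin Hist2h2aa1, with the same coding sequence, had 178 and 89.5 in the first and 3534 and 2689 in the other. The sum over these twins was 4056 and 3134 against 3534 and 2689 counts, a ratio of 0.87 and 0.86. The level of either twin alone thus depended on the quantification, while their sum differed little. Hist1h2ad belongs to a group of 11 Hist1 H2A genes. Genes were grouped, directly or through another gene, when over 50% of the 75-base words of the one with fewer were shared. Whole transcripts in a group can differ, as Hist1h2ac shares 11.1% of its 75-base words with other genes. Hist1h2ad had 225 and 141 against 2032 and 1549 counts, and Hist1h2ae, of the same group, had 325 and 250 against 1006 and 812. Summed over those 11 genes the ratio was 0.78 and 0.80.

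H2B showed both patterns. Hist1h2be, which shares 18.2% of its 31-base words with other genes, had 600 and 496 against 2666 and 1984 counts. Its annotated exons overlap those of 2 other genes on the same strand. Hist1h2bq and Hist1h2br share an identical coding sequence, and they had 707 and 468 and 735 and 490 counts in the first quantification but 0 and 0.04 and 11.8 and 17.5 in the other. The deposited bounds for Hist1h2bq in replicate 1, which the first quantification gives for the division of reads, ran from 0.34 to 134 TPM. Hist1h2bl had 785 and 617 against 41.9 and 26.5 counts, and Hist2h2bb 1490 and 1070 against 201 and 153. By the same rule, 6 H2B genes that include Hist1h2bl, Hist1h2bq and Hist1h2br formed a group. As a sum these 6 kept 0.24 and 0.25 of their counts, so their reads did not reappear within that group. In H3 the largest TPM ratio was that of Hist2h3c2, with 40.2 and 23.5 against 87.5 and 61.6 TPM. All genes tested had a median log2 TPM ratio of 0.38. In count share, by contrast, 2 of the 11 tested H3 genes were over 2-fold lower and none was over 2-fold higher. No H1 gene was past 2-fold in either unit.

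Members with short annotated transcripts differed most. Among the 27 tested members of up to 500 bases, 21 were over 2-fold lower in count share, against 2.75% of all genes tested, of any length. The other quantification kept 36.4% and 37.6% of the counts of these 27. From there to 1000 bases 6 of 20 were lower and 83.3% and 83.8% were kept, and over 1000 bases 3 of 15 were lower and 87.8% and 87.0% were kept. Of the 11 tested members annotated without any untranslated sequence, 10 were lower and 16.2% and 17.4% of the counts were kept. Sharing of sequence moved with the differences as well. Over all members the median share of 31-base words found in another gene's transcripts was 58.5%, from 3.73% for H1 to 74.9% for H2A, and 40 of 67 members shared over 50%. Of the 18 tested members with 80% or more shared words, 16 were past 2-fold in count share, against 9 of 23 under 50% and 9 of 21 between. Of all genes tested, 2.75% were past 2-fold lower and 0.613% higher. Spearman's rho across the 62 genes between shared words and the size of the count-share ratio was 0.463, as a description only, since these genes share libraries and sequence. Shares for other genes of like length, annotation or sharing were not computed, so these counts do not set histone genes apart from such genes. The part of length, annotation and sharing in the differences was not tested.

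Between the libraries, clustered histone RNA was lower in replicate 2. Expected counts of the 67 genes summed to 66833 in replicate 1 and 50070 in replicate 2. After TMM scaling of the libraries the log2 ratio of replicate 2 over replicate 1 was -0.28, with a 95% Clopper-Pearson interval from -0.29 to -0.26 that covers counting error only, a 1.21-fold lower level. The median over the 62 tested members was -0.27, beside 0.01 over all 13208 genes tested. Of the 62, 57 had ratios below 0. An interval that left out equality on the lower side was found for 45 of the 62, against 20.6% of all genes, and on the higher side for 1, against 22.4%. Among tested members with at most 50% shared words, a limit chosen after seeing the data, it was 12 of 24 on the lower side. The intervals leave out error in placing reads among similar genes. This compares 2 libraries of 1 group, and no test across animals was possible, since an exact 2-sided sign-flip test over 2 samples cannot give a p below 0.5.

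**Figure D5:**
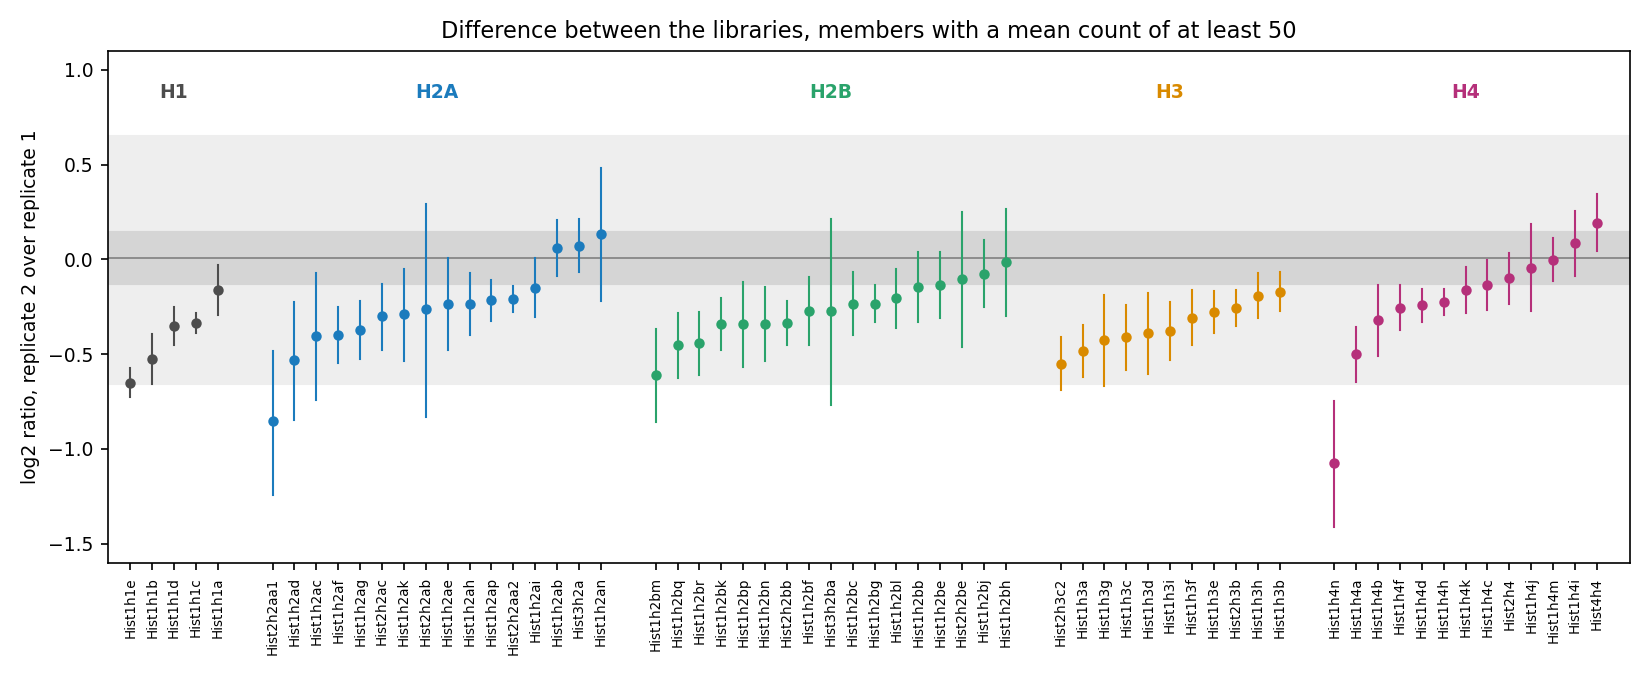
log2 ratio of replicate 2 over replicate 1 after TMM scaling for the 62 members whose counts averaged 50 or more, with 95% counting intervals, ordered within family. The dark band holds the middle of all 13208 genes from the 25th to the 75th percentile (-0.13 to 0.15), the pale band the 2.5th to the 97.5th (-0.66 to 0.65), and most members lie below the dark band.

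In the first quantification the median was below 0 in every family. Family medians were -0.38 for H3, -0.35 for H1, -0.27 for H2B, -0.25 for H2A and -0.16 for H4. With counts of the other quantification they were -0.30, -0.37, -0.26, -0.24 and -0.01 in the same order, beside -0.02 over all genes, so that the H4 median there was at the level of all genes. All 11 tested H3 genes and all 5 tested H1 genes were lower with intervals that left out equality. So were 11 of 17 H2B, 10 of 16 H2A and 8 of 13 H4 genes, against 20.6% of all genes. The differences between these medians were not tested. Hist1h1e had 3881 and 2241 counts, a log2 ratio of -0.65 with an interval from -0.73 to -0.58. Hist1h4n was the only member over 2-fold lower, against 0.984% of all genes, with 256 and 110 counts and a log2 ratio of -1.07 (interval -1.41 to -0.75). Hist1h4m, with the same coding sequence, had 1362 and 1233 counts and a ratio of 0.00, and the pair summed to 1618 and 1343 counts with a ratio of -0.13 (interval -0.23 to -0.02). The single member that was higher was Hist4h4, with 717 and 743 counts and a ratio of 0.19 (interval 0.04 to 0.34), which turned to -0.032 as a ratio of TPM.

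Library scaling changed the size of the shift and not its direction. With library totals the median over members was -0.37 and that over all genes -0.10, with 38.6% of all genes lower and 11.7% higher. With the ERCC spike-ins, RNAs of known amount added to each sample, the medians were -0.34 and -0.06, with 32.0% of all genes lower and 14.5% higher. As a ratio of TPM they were -0.49 and -0.21. Library totals and spike-ins move every gene by the same amount, so the distance between the medians under them is fixed by construction.

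Genes of DNA replication were lower as well, with a smaller median, a difference between lists that was not tested. Of 26 S phase genes, 13 were lower with an interval that left out equality and none was higher, against the 20.6% and 22.4% of all genes, with a median log2 ratio of -0.17. Top2a, the topoisomerase that untangles replicated DNA, had 23.8 and 16.2 TPM and a ratio of -0.28. Ccna2, the S phase cyclin, had 13.0 and 9.26 TPM and a ratio of -0.27. Mki67, a marker of cycling cells, had 16.4 and 12.4 TPM and a ratio of -0.18, and Pcna, the sliding clamp of the replication fork, 32.6 and 25.3 TPM and a ratio of -0.15.

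Markers of other cell types also differed between the libraries. The median log2 ratio was -0.42 for 7 fibroblast markers, whose summed level was 1894 and 1197 TPM, and -0.46 for 7 macrophage markers, at 65.4 and 41.0 TPM. It was -2.05 for 5 atrial markers, at 1504 and 269 TPM, -4.95 for 5 adipocyte markers, at 420 and 31.2 TPM, -2.25 for 4 of 5 Schwann cell markers, at 18.6 and 3.19 TPM, and -0.90 for 6 mesothelial markers, at 37.6 and 20.1 TPM. Endothelial markers had -0.07, mural markers 0.01, cardiomyocyte markers 0.15 and erythroid markers 0.23, and 2 of 10 lymphocyte markers passed the count filter, with -0.38. No marker of these lists was at 0 TPM in both libraries. Their part in the lower histone level was not tested.

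Genes that make and process histone mRNA were present at low to moderate levels. Slbp, the protein that binds the stem-loop, had 11.5 and 9.79 TPM. Lsm10 and Lsm11, the proteins particular to the U7 small nuclear ribonucleoprotein that directs 3′ cleavage, had 4.60 and 5.07 TPM and 2.64 and 2.55 TPM, while Zfp473, a further U7 partner, had 0.05 and 0.09 TPM. Npat, the coactivator of histone genes, had 4.63 and 3.49 TPM, and Casp8ap2, a component of the histone locus body, 3.00 and 2.52 TPM. Hinfp, which acts on H4 promoters, had 4.19 and 7.40 TPM and Pou2f1, which binds the octamer, 5.03 and 5.67 TPM. All of these named genes except Zfp473 were thus above 1 TPM in both libraries.

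The lists of such genes, which overlap in Casp8ap2 and in other lists by Ccna2, had medians near 0 between the libraries. Of 20 tested 3′ end processing and degradation genes, 5 were lower and 2 higher with intervals that left out equality, beside 20.6% and 22.4% of all genes, with a median of -0.03. Of 17 transcription genes, 2 were lower and 6 higher, with a median of 0.11, and of 22 chaperone genes, 5 were lower and 3 higher, with a median of -0.02, beside the same shares of all genes. Slbp had a ratio of -0.04 and Npat of -0.07. Among chaperones the lowest ratios belonged to Asf1b, which hands H3 and H4 to the assembly factors, with 165 and 105 counts and -0.51, and to Chaf1b, a subunit of the factor that loads them at the fork, with 161 and 106 counts and -0.46. Nasp, which stores soluble H3 and H4, had 19.4 and 16.5 TPM and a ratio of 0.01. These differences between lists were not tested.

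Genes listed as replication-independent variants, many of which are made outside S phase as well and from polyadenylated mRNAs, were also present for H1, H2A and H3. H3f3a and H3f3b, which encode the same H3.3 protein, had 363 and 333 TPM and 164 and 110 TPM. H3f3c had 19.2 and 16.7 TPM in the first quantification and was listed at 0 in the other, and Cenpa, the centromeric H3, 35.7 and 27.4 TPM. H1f0, the H1 of non-dividing cells, had 94.6 and 64.1 TPM and H1fx 9.59 and 7.18 TPM. H2afz had 63.7 and 53.1 TPM, H2afy 33.2 and 23.8, H2afv 30.5 and 26.8, H2afx 24.2 and 17.6, H2afj 17.7 and 13.2, and H2afy2 4.45 and 4.38 TPM. In the other quantification H2afj had 7.76 and 7.51 TPM. The germ-line variants H1foo, H1fnt, H2afb1, H2afb2 and H2afb3 were at 0 counts and Hils1 at 0 and 2 counts.

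Clustered genes supplied most of the H1 and H2A RNA and a smaller majority of H3 RNA. Their share of the class was 77.3% and 76.3% for H1, a mean of 76.8 ± 0.672% (SD, n = 2), and 85.4% and 84.3% for H2A, a mean of 84.8 ± 0.724%. For H3 it was 58.6% and 54.0%, a mean of 56.3 ± 3.23%, so that the H3 share lay below both others by far more than the spread. In the other quantification the shares were 76.0% for H1, 87.8% for H2A and 54.1% for H3. In counts without scaling for length they were 71.2%, 68.6% and 39.3%, so the clustered majority for H3 did not hold in reads. Of 12 variants tested between the libraries, 4 were lower and 1 higher, beside 20.6% and 22.4% of all genes, with a median of -0.10. H3f3b had a ratio of -0.37 and H3f3a of 0.09. No variant list was used for H2B or H4.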

How the data were processed

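Total RNA from 2 heart libraries of 300 ng each was measured. Per the file headers and deposited notes, the authors used mm10 with GENCODE M21, and the programs are not given in the sources used here. Deposited tables hold expected counts and, in the other quantification, estimated counts, neither necessarily whole. The authors' TPM is scaled to a constant sum over all rows, spike-ins included, and their FPKM, per the file headers, served as an alternative. The deposited percent of a gene's TPM per transcript was kept beside its transcripts. Strand of counting was not stated, so overlapping genes are uncertain, and reads of CAST alleles were placed on a B6 reference. Symbols, biotypes and coordinates came from GENCODE M21, promoters from RefSeq GRCm38.p6.

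Counts were rounded and scaled with edgeR 4.0.16 TMM factors (DESeq2 1.42.0 size factors as an alternative), in R 4.3.3, and 0.5 was added for ratios. Genes whose counts averaged 50 or more were tested. A gene was called lower or higher if its exact 95% Clopper-Pearson interval left out 1. Quantifications were compared as TPM with 0.1 added, or as share of the library's counts, past 2-fold in the same direction in both libraries. Without molecular identifiers, intervals and floors cover counting error only. Rows naming no gene held 3.89 and 3 counts and were left out, as were 86 genes of the gene table only. Named were the 3 highest members of each family, members under 1 TPM, past 2-fold between libraries or past 4-fold between quantifications, members outside Hist1, and genes of the lists, of which those without a value here are given by counts and medians. Hist1h1a, Hist1h1d, Hist1h1e and the paired genes were singled out after their values were seen, as were some S phase genes and chaperones. Members, gene lists and tests were chosen with earlier results of these data known. Protein sequences were not used here.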

Additional observations from a re-analysis of the deposited data

Results flagged for a closer look

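A pair of histone rows outside the protein-coding set carried counts above the floor of 3. Hist3h2bb-ps, a processed pseudogene in the Hist3 cluster next to Hist3h2a, had 30.7 and 27.4 expected counts in replicates 1 and 2, close to the 29.9 and 26.8 of the other quantification. Hist1h2al, a processed pseudogene on chromosome 13 that lies outside the Hist1 cluster at chr13:51202727-51203065, had 514 and 350 expected counts, or 70.9 and 45.6 TPM, in the first quantification and was listed at 0 in the other. The pseudogene Hist1h2aj was at 0 in both quantifications.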

How the results depend on the processing

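No paired analysis was possible because the series has 1 group. The direction of the summed and median difference between libraries was lower in replicate 2 under every scaling, filter and pseudocount run. The summed log2 ratio was -0.38 with library totals, -0.30 with DESeq2 size factors, -0.35 with ERCC scaling, -0.31 with counts of the other quantification and -0.49 as a ratio of TPM, where the median was also -0.49. Hist4h4 turned to -0.032 as a ratio of TPM. With counts of the other quantification no member was over 2-fold lower, Hist1h4n being too low there for a ratio, and Hist2h2aa2, at 0 there, has none either. Among members with at most 50% shared words, 12 of 24 were lower, against 20.6% of all genes. Of these 24, 0 were over 2-fold lower, against 0.984% of all genes.

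Family shares for H1, H2A, H2B, H3 and H4 were 21.5%, 19.1%, 17.2%, 18.0% and 24.3% in counts, 13.0%, 20.2%, 18.6%, 17.2% and 30.9% in counts per length up to the stem-loop (chosen after seeing the data, as was the limit on shared words), and 4.35%, 17.9%, 18.7%, 15.1% and 21.9% each without the family's highest member. With the other quantification's TPM they were 31.5% for H2A, 18.5% for H2B, 21.9% for H3 and 20.3% for H4. FPKM, protein-coding transcripts alone, rescaling over nuclear coding genes and either library alone moved no share beyond the spread.

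Members lower and higher past 2-fold between quantifications numbered 30 and 4 in count share, against 2.75% and 0.613% of all genes. With at most 50% shared words they numbered 5 and 4 past 2-fold in TPM, against 2.18% and 2.54% of all genes. In TPM 9 and 4 were past 4-fold, and past 1.5-fold 17 were lower and 18 higher. Shares of all genes past 4-fold and 1.5-fold were not computed. The median log2 TPM ratio over all genes tested was already 0.38. Clustered shares were 71.2%, 68.6% and 39.3% for H1, H2A and H3 in counts, and 76.0% and 87.8% for H1 and H2A in the other quantification. Shared 75-base words had a median of 42.0%. The causes were not tested. Depth limits members near the floor of 3 counts.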
